A study of Mus musculus with 2 samples.

Results

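The cytochrome P450 genes outside the CYP1 family were followed in whole mouse lung with and without Cre-mediated deletion of Foxf1, a forkhead transcription factor of lung endothelium and mesenchyme. Every symbol made of Cyp and a digit was taken from both deposited tables, except Cyp1a1, Cyp1a2 and Cyp1b1. This gave 98 genes of the 22072 measured. Where a symbol had more than 1 transcript, its values were added up. The unit is FPKM, sequenced fragments scaled to transcript length and to library size, so levels of different genes can be set side by side. Of the 98 genes, 27 had a mean FPKM of at least 1 over the libraries, the floor used throughout, and are described one by one.

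The control pool came from mice with floxed Foxf1 alleles (Foxf1 fl/fl) and no Cre. The knockout pool came from mice with the same floxed alleles and Pdgfb-iCreER, a transgene in which the Pdgfb promoter drives a tamoxifen-activated Cre, mainly in endothelial cells. The labelled strain of both was C57/BL6, and the controls differ from the knockouts in lacking Cre as well as in keeping Foxf1. Lung RNA from more than 1 mouse was combined per genotype and sequenced as 1 library, so no difference below has a replicate check and no p-value is given. For the age, sex and number of mice and the tamoxifen treatment, nothing is stated in the labels.

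Cytochrome P450 enzymes are haem proteins that insert an oxygen atom into lipids, drugs and toxins. Those of the endoplasmic reticulum take electrons from P450 reductase, encoded by Por, and the mitochondrial ones from ferredoxin. In mouse lung the drug-oxidising P450s are concentrated in club cells, the secretory cells of the airway, whereas liver is the main site of the CYP2C and CYP3A enzymes. Other members synthesise cholesterol, break down oxysterols and retinoic acid, or oxidise fatty acids and eicosanoids.

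The library totals, estimated from coverage, were 10.4 M reads on transcripts for knockout and 13.2 M for control. Foxf1, listed as Foxf1a, had an FPKM of 72.1 (control) and 15.7 (knockout), 4.59-fold lower. The lung origin of both pools was plain in the alveolar type 2 markers, with a summed FPKM of 24176 (control) and 21364 (knockout), led by Sftpc. Intervals given with ratios are exact 95% Clopper-Pearson intervals of the approximate read numbers. They cover counting error only, not the variation between mice, pools or library preparations.

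The promoters of 5 genes are shown because these genes carry the results below. Cyp2f2, Cyp4b1 and Cyp2b10 were the most abundant members, Cyp51 is the cholesterol synthesis member, and Cyp2c29 had the highest ratio of the 27 genes over the floor. Each line holds the 250 bases before the start of the gene in RefSeq on GRCm38.p6, 5′ to 3′ along the gene. The positions are chr7:27119705-27119954 on the plus strand for Cyp2f2, chr4:115647722-115647971 on the minus strand for Cyp4b1, and chr7:25897408-25897657 on the plus strand for Cyp2b10. Those of Cyp51 are chr5:4104698-4104947 on the minus strand and those of Cyp2c29 are chr19:39286835-39287084 on the plus strand. Capitals mark the letters of a searched motif.
Cyp2f2: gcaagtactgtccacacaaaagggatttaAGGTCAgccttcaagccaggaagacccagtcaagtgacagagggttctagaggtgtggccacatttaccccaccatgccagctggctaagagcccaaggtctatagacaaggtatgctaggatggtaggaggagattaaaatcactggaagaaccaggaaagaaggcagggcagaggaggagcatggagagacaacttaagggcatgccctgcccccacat
Cyp4b1: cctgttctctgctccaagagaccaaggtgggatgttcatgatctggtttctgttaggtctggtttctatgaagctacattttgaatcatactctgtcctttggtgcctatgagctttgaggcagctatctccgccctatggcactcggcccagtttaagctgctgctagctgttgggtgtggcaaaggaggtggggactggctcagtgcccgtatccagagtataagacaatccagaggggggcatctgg
Cyp2b10: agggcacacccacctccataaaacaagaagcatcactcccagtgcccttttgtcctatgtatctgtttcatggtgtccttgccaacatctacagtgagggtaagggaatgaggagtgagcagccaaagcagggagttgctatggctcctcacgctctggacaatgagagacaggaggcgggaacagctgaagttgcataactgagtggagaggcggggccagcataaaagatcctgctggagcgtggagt
Cyp51: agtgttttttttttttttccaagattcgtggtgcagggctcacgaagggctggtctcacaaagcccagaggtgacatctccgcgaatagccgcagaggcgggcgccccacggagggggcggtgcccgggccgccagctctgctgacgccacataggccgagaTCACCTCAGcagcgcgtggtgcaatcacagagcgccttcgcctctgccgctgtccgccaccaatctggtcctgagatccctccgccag
Cyp2c29: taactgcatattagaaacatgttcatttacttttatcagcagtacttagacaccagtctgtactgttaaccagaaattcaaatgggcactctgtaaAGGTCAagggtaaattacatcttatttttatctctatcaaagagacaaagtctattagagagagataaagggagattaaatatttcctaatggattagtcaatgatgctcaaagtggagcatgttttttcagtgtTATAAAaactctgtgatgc

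In these windows 5 sets of letters were searched on both strands: the forkhead core TGTTTAC, the D-box letters TTATGTAA or TTACGTAA, the nuclear receptor half-site AGGTCA, the TATA box TATAAA and the sterol element TCACCTCAG. Of the 27 genes, 23 were in the promoter table. Shares are of all 27025 genes with windows of the same length, a gene being counted when any of its windows matched. The sterol element was found in Cyp51 alone, 88 bases before the start, and in 0.348% of all these genes. AGGTCA was found in Cyp2f2, Cyp2c29 and Cyp3a11 and in 15.8% of all. It lay 221 bases before the start of Cyp2f2 and 154 bases before that of Cyp2c29. TATAAA was found in 7 of the 23 and in 14.3% of all, among them Cyp2c29, 19 bases before the start. TGTTTAC was found in 1 of the 23, Cyp3a11, against 3.54% of all, and the D-box letters in 0 against 1.10%. The windows of Cyp4b1 and Cyp2b10 held none of these letters. A match describes the sequence and shows no binding, and the absence of these letters says nothing beyond the window.

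Considered as a whole, the P450 genes held less of the library in the knockout pool. Their summed FPKM was 1892 (control) and 1014 (knockout), 1.87-fold lower. The sum rests on 3 genes. Cyp2f2 made up 60.7% of it (control) and 63.2% (knockout), Cyp4b1 19.01% and 11.6%, and Cyp2b10 10.4% and 8.20%. Without these 3 genes the ratio of the sums, knockout over control, was 0.915.

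Of the 27 genes, 9 were at least 1.5-fold lower in the knockout pool on the log2(FPKM + 1) scale, 6 were at least 1.5-fold higher and 12 lay between. Among all 12929 genes that met the same floor, 4.63% were lower and 9.41% higher by the same rule. The log2 ratio was below 0 for 15 of the 27 and above 0 for 12, against 43.2% and 56.8% of all genes. Its median was -0.32 for the 27 genes and 0.05 for all genes. Adding 1 to FPKM shrinks the ratio of weakly expressed genes, so plain FPKM ratios are given for single genes. Counting intervals of the plain ratio lay below 1 for 13 of the 27, above 1 for 10 and held 1 for 4. Over all 12929 genes they lay below 1 for 22% and above 1 for 33.1%. Both pools reached an FPKM of 1 in 23 of the 27 genes, of which 7 were lower and 4 higher. Over all genes, 12413 did so, of which 524 were lower and 987 higher. Cyp26b1, Cyp8b1, Cyp3a11 and Cyp2c29 entered through a single pool and were bound to differ.

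**Figure D1:**
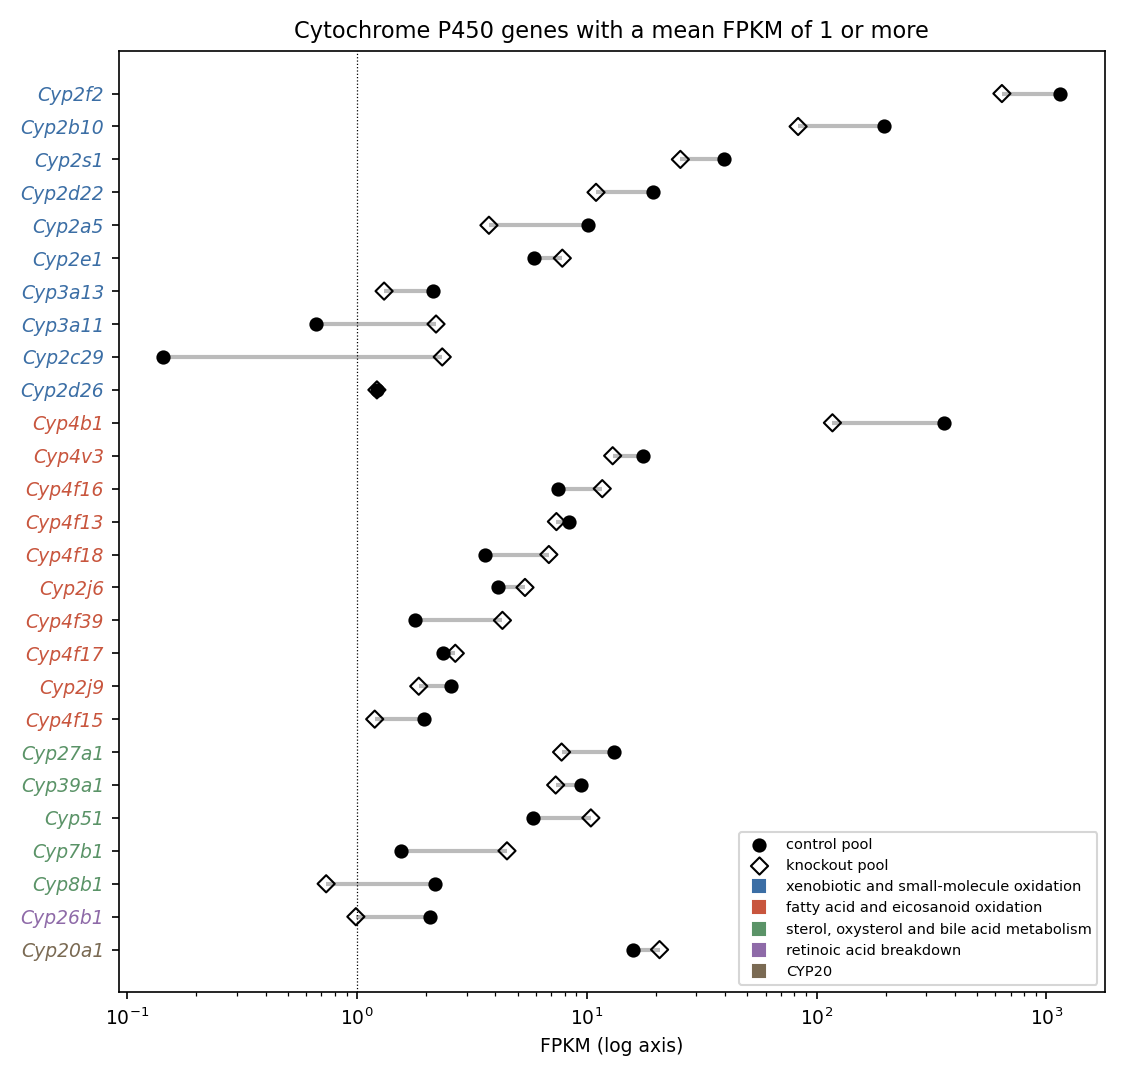
FPKM of the 27 P450 genes over the floor, on a log axis, with a filled circle for the control pool and an open diamond for the knockout pool. Names are coloured by role, the dotted line is an FPKM of 1, and Cyp2f2, Cyp4b1 and Cyp2b10 stand to the right of all others in both pools.

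The largest role group, the oxidation of drugs, toxins and other small molecules, held 50 of the 98 genes. Of these, 10 reached the floor, of which 5 were lower, 2 higher and 3 between, with a median log2 ratio of -0.53. Both higher genes passed the floor through the knockout pool alone. Of the 8 with an FPKM of at least 1 in both pools, 5 were lower and 0 higher, with a median of -0.69. Positions of genes are from the deposited tables, on mm9, and unlabelled pairs of values are FPKM with the control pool first. The 5 lower genes include Cyp2f2, the most abundant of all members, and Cyp2b10. Cyp2f2 (chr7:27904974-27918679) encodes the club cell enzyme that activates naphthalene to a toxic epoxide. It had an FPKM of 1147 (control) and 641 (knockout), 1.79-fold lower (1.75 to 1.82). Cyp2b10 (chr7:26682683-26711643), a drug-inducible enzyme of liver that is also made in lung, was at 197 (control) and 83.2 (knockout). That is 2.36-fold lower (2.25 to 2.49), a wider gap than that of Cyp2f2, with counting intervals that do not overlap. Of the 47-base windows of their transcripts in GENCODE M21, 9.29% of Cyp2f2 and 9.94% of Cyp2b10 also occur in other genes, whose reads the tables may divide.

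Cyp2s1 (chr7:26587495-26601549), an enzyme of epithelia outside the liver, was at 39.5 (control) and 25.5 (knockout), 1.54-fold lower (1.42 to 1.68). Cyp2a5 (chr7:27620358-27628283), which hydroxylates coumarin and nicotine, was at 10.1 and 3.75, 2.69-fold lower (2.10 to 3.48). It shares more sequence than any other of the 27 genes, with 39.5% of its 47-base windows also found in other genes, 30.3% in Cyp2a4. Cyp2a4 itself was at 0.762 (control) and 0.251 (knockout), so the summed Cyp2a subfamily was also lower, at 11.1 and 4.43. Cyp2d22 (chr15:82200957-82210690), one of 10 Cyp2d genes, was at 19.4 and 11.0, 1.77-fold lower (1.57 to 1.999). A second transcript made up 2.49 of the control value and close to 0 of the knockout value. With the main transcript alone the log2 ratio of Cyp2d22 was -0.58, just short of 1.5-fold, against -0.77 for the sum.

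Cyp2f2, Cyp2b10, Cyp2s1 and Cyp2a5 belong to the same gene cluster, 13 Cyp2 genes within chr7:26587495-27943583. These 4 were the only genes of that span, P450 or not, over the floor of mean FPKM, and all 4 were lower in the knockout pool. Of the 13 genes, 9 had the lower FPKM in the knockout pool and 4 the higher.

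Markers of club cells were also measured. Of 13 club cell markers measured, 10 reached the floor, of which 5 were at least 1.5-fold lower and 1 higher, with a median log2 ratio of -0.52. Their summed FPKM was 40319 (control) and 25519 (knockout), and none was at 0 in both pools. Scgb1a1, the main secretoglobin of club cells, was at 35265 and 22774, 1.55-fold lower, a smaller fold than that of Cyp2f2. Cbr2, a carbonyl reductase, had the lowest ratio of the 10 at 3230 and 1461, 2.21-fold lower, a larger fold than that of Cyp2f2. Scgb3a1 had the highest of the 10 at 1.58 and 3.40, with a counting interval (0.997 to 4.53) that held 1. Ciliated cell markers had 3 of 12 genes at least 1.5-fold lower, 0 higher and a summed FPKM of 722 and 437. Sec14l3 made up 445 and 279 of that sum. The log2 ratio was below 0 for all 12, against 43.2% of all genes over the floor. Of the alveolar type 2 markers, 0 of 11 passed 1.5-fold in either direction, and of the alveolar type 1 markers, 4 of 12 were lower and 1 higher. Endothelial markers, of the cells that Cre targets, had 2 of 10 higher and 1 lower, fibroblast markers 4 of 9 higher and 1 lower, smooth muscle markers 3 of 6 higher and 0 lower, and heart markers 3 of 4 higher and 0 lower, 1 of them through the knockout pool alone. In whole lung, fewer cells of a type and less RNA per cell cannot be told apart, and the part of cell makeup in the P450 values was not tested.

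**Figure D2:**
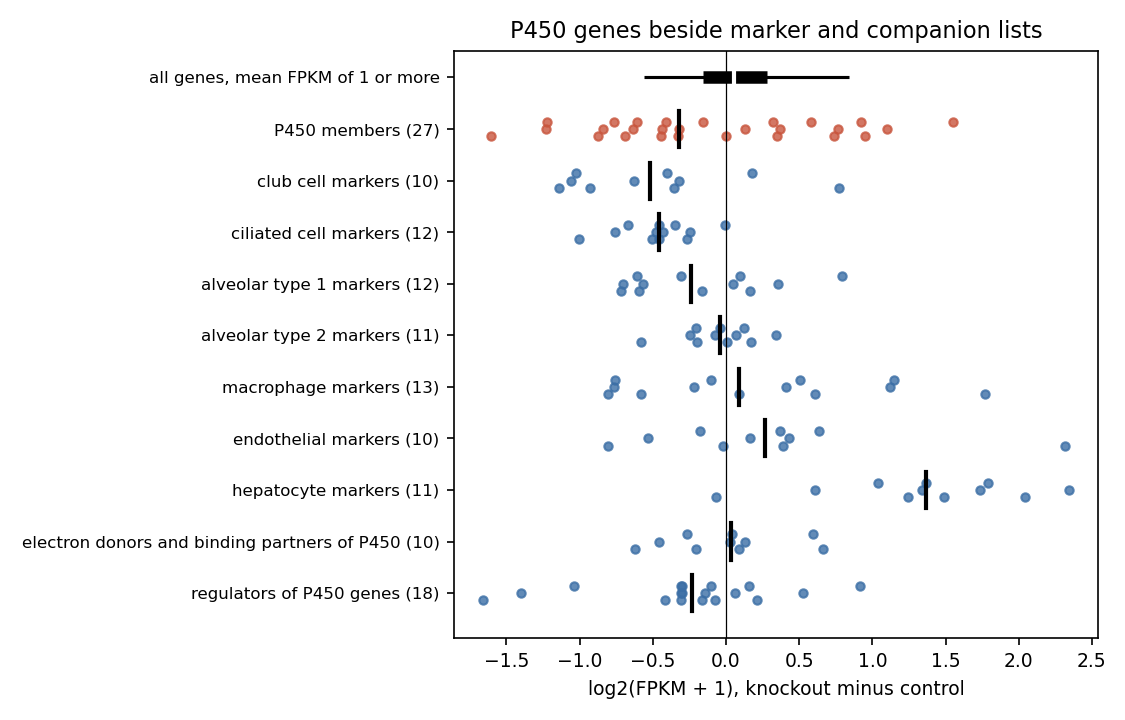
Log2(FPKM + 1) of the knockout pool minus that of the control pool for each gene over the floor, by list, with the number of genes in brackets and a black bar at the median. The top row shows all 12929 genes, the thick line from the 25th to the 75th percentile (-0.16 to 0.28) and the thin line from the 5th to the 95th (-0.56 to 0.84). The P450 genes spread from -1.61 to 1.55, club and ciliated cell markers have medians of -0.52 and -0.46, and 7 of the 11 hepatocyte markers passed the floor through the knockout pool alone.

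The 2 higher genes of the drug-oxidising group are liver enzymes with low values in lung, and both were bound to be higher once they passed the floor through the knockout pool alone. Cyp3a11 (chr5:146666183-146691430), the main hepatic CYP3A enzyme of the mouse, was at 0.662 (control) and 2.21 (knockout), a ratio of 3.33 (2.05 to 5.84). Cyp2c29 (chr19:39361575-39405203) was at 0.144 and 2.35, a ratio of 16.3 (6.43 to 66.3) that rests on about 4.23 reads (control) and 53.5 (knockout). It had the highest ratio of the 27 genes.

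The rest of the Cyp2c subfamily lay under the floor but mostly in the same direction. Of all 16 Cyp2c genes, Cyp2c29 included, 11 had the higher FPKM in the knockout pool, 2 the lower and 3 were at 0 in both. Their sum was 0.795 (control) and 5.67 (knockout). The summed reads, scaled to library size, were 6.84 times as many in the knockout pool (4.46 to 11.2). Cyp2c29 alone made up 0.144 (control) and 2.35 (knockout) of the summed FPKM, and about 53.5 of the 129 knockout reads. Counting intervals lay above 1 for 6 of the 16, Cyp2c29 among them, and below 1 for 0, against 20.9% and 13.9% of all 22072 genes. For the other 10 they held 1 or could not be formed. Among genes named after their values were seen, Cyp2c50 was at 0.0356 and 0.785, Cyp2c37 at 0.0705 and 0.600, and Cyp2c70 at 0.105 and 0.584. Cyp2c44, the only one of the 16 outside the cluster of 15 Cyp2c genes at chr19:39081509-40261776, was at 0.374 and 0.179, with a counting interval that held 1. Reads of near-identical Cyp2c genes can be divided between them in ways that these tables do not show.

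Of the 8 Cyp3a genes, 5 had the higher FPKM in the knockout pool and 3 the lower, and the sum was 3.02 (control) and 4.20 (knockout). Cyp3a13 (chr5:138334161-138362847), an enzyme also made outside the liver, went against Cyp3a11, at 2.15 and 1.31, with a fold of 1.64 (1.16 to 2.36) below the control. It did not pass 1.5-fold on the log2(FPKM + 1) scale. Also between the thresholds were Cyp2e1 (chr7:147949731-147960876), the ethanol-oxidising enzyme, at 5.92 and 7.82 with a ratio of 1.32 (1.06 to 1.64), and Cyp2d26 (chr15:82620537-82624675), at 1.22 in both pools with a ratio of 1.004 (0.584 to 1.75).

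Hepatocyte markers had a higher sum in the knockout pool beside Cyp2c29 and Cyp3a11. The summed FPKM of the 14 measured was 20.7 (control) and 93.4 (knockout), and none was at 0 in either. Of these, 11 reached the floor, but 7 of them did so through the knockout pool alone and were bound to differ. Of the 4 with an FPKM of at least 1 in both pools, 3 were at least 1.5-fold higher and 0 lower. The highest single value of the list was 49.6, in the knockout pool. The part of liver RNA in the Cyp2c and Cyp3a values was not tested. Other P450 genes went both ways, and those named here are examples, not a full list of liver P450 genes. Cyp8b1 and Cyp27a1, which are also abundant in liver, had the lower FPKM in the knockout pool. Cyp8b1 passed the floor through the control pool alone and was bound to be lower. Cyp2e1 and Cyp7a1 had the higher, with Cyp7a1 under the floor at 0 (control) and 0.132 (knockout). The part of liver RNA in these values was not tested either. Cyp8b1 and Cyp27a1 are described with the sterol enzymes.

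**Figure D3:**
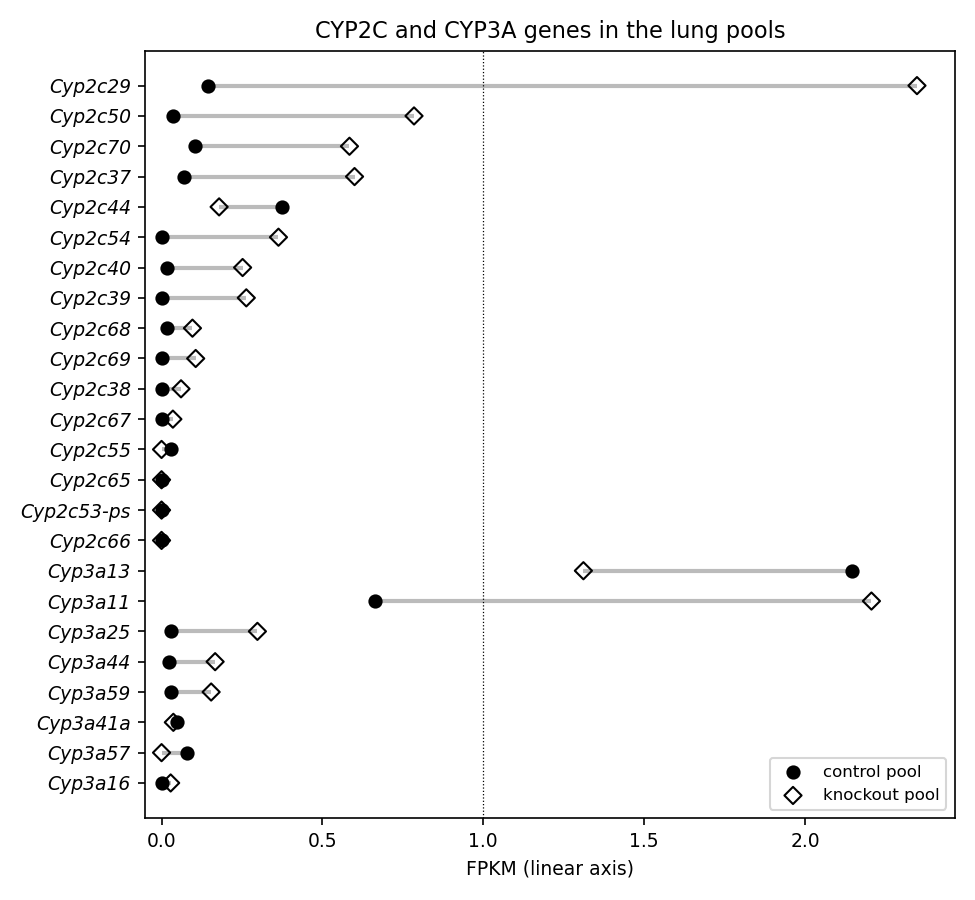
FPKM on a linear axis of the 16 Cyp2c and 8 Cyp3a genes, with a filled circle for the control pool and an open diamond for the knockout pool. The dotted line is an FPKM of 1. Cyp2c29 and Cyp3a11 lie right of it in the knockout pool alone, Cyp3a13 in both pools, and Cyp2c44 and Cyp3a13 run against Cyp2c29 and Cyp3a11.

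The fatty acid and eicosanoid group held 28 genes, of which 10 reached the floor. A single one of them was lower, 2 were higher and 7 lay between, with a median log2 ratio of -0.01. Cyp4b1 (chr4:115297333-115320310), an abundant lung enzyme that oxidises fatty acids and activates plant toxins, was the lower gene. It was at 360 (control) and 117 (knockout), 3.07-fold lower (2.94 to 3.20), the largest fold among the 4 most abundant members. Its neighbour Cyp4a32, just under the floor, was at 1.09 and 0.0444, which is about 34.4 reads against 1.08, so that its fold of 24.6 has an interval from 4.42 to 1070. In the chr4:114781287-115320310 cluster of 10 P450 genes, Cyp4b1 was the only P450 over the floor. The only other gene of that span over the floor, Gm12839, had a log2 ratio of -1.49.

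The higher genes of the group were Cyp4f18 and Cyp4f39. Cyp4f18 (chr8:74512381-74533525), a leukotriene hydroxylase of neutrophils, was at 3.602 (control) and 6.84 (knockout), a ratio of 1.90 (1.47 to 2.48). Cyp4f39 (chr17:32589668-32630265), which hydroxylates very long fatty acids for the barrier lipids of skin, was at 1.79 and 4.29, a ratio of 2.40 (1.81 to 3.21). Other Cyp4f genes spread in both directions. Cyp4f16 (chr17:32673574-32688742) was at 7.48 and 11.7, a plain ratio of 1.56 (1.32 to 1.84) but a log2(FPKM + 1) ratio of 0.58, just short of 1.5-fold, and 17.3% of its 47-base windows also occur in Cyp4f37. Cyp4f15 (chr17:32822604-32840294) ran the other way at 1.96 and 1.19, a fold of 1.65 below the control (1.08 to 2.62).

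Intervals of Cyp4f13 (chr17:33061633-33084306), at 8.34 and 7.38, and Cyp4f17 (chr17:32643407-32665839), at 2.36 and 2.68, held 1. All 9 Cyp4f genes together summed to 25.8 (control) and 34.3 (knockout). Of these, 8 lie at chr17:32589668-33102661, where 5 reached the floor, 1 of them higher and 0 lower. Cyp4f39, Cyp4f17 and Cyp4f16 had the higher FPKM in knockout lung, and Cyp4f15 and Cyp4f13 the lower, so that this cluster lay on both sides of equality. Macrophage markers, listed beside the leukocyte enzyme Cyp4f18, were 4 higher and 3 lower of 13, with a summed FPKM of 517 and 576, and their part in its value was not tested.

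The remaining members of the group lay within 1.5-fold. Cyp4v3 (chr8:46391156-46418550), a fatty acid hydroxylase whose human counterpart is mutated in a retinal dystrophy, was at 17.5 (control) and 13.0 (knockout), 1.35-fold lower (1.21 to 1.51). The arachidonic acid epoxygenases of the CYP2J subfamily gave Cyp2j6 (chr4:96182829-96220342) at 4.11 and 5.38, a ratio of 1.31 (1.10 to 1.57), and Cyp2j9 (chr4:96235120-96258176) at 2.57 and 1.86, 1.39-fold lower with an interval (0.951 to 2.03) that held 1. Epoxides made by such enzymes are opened by epoxide hydrolases. The microsomal one, Ephx1, was at 90.1 and 70.4, and the soluble one, Ephx2, at 0.692 and 1.39. Of the P450s with other symbols, prostacyclin synthase Ptgis was at 58.2 and 55.2 and thromboxane synthase Tbxas1 at 3.61 and 4.81, both within 1.5-fold.

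**Figure D4:**
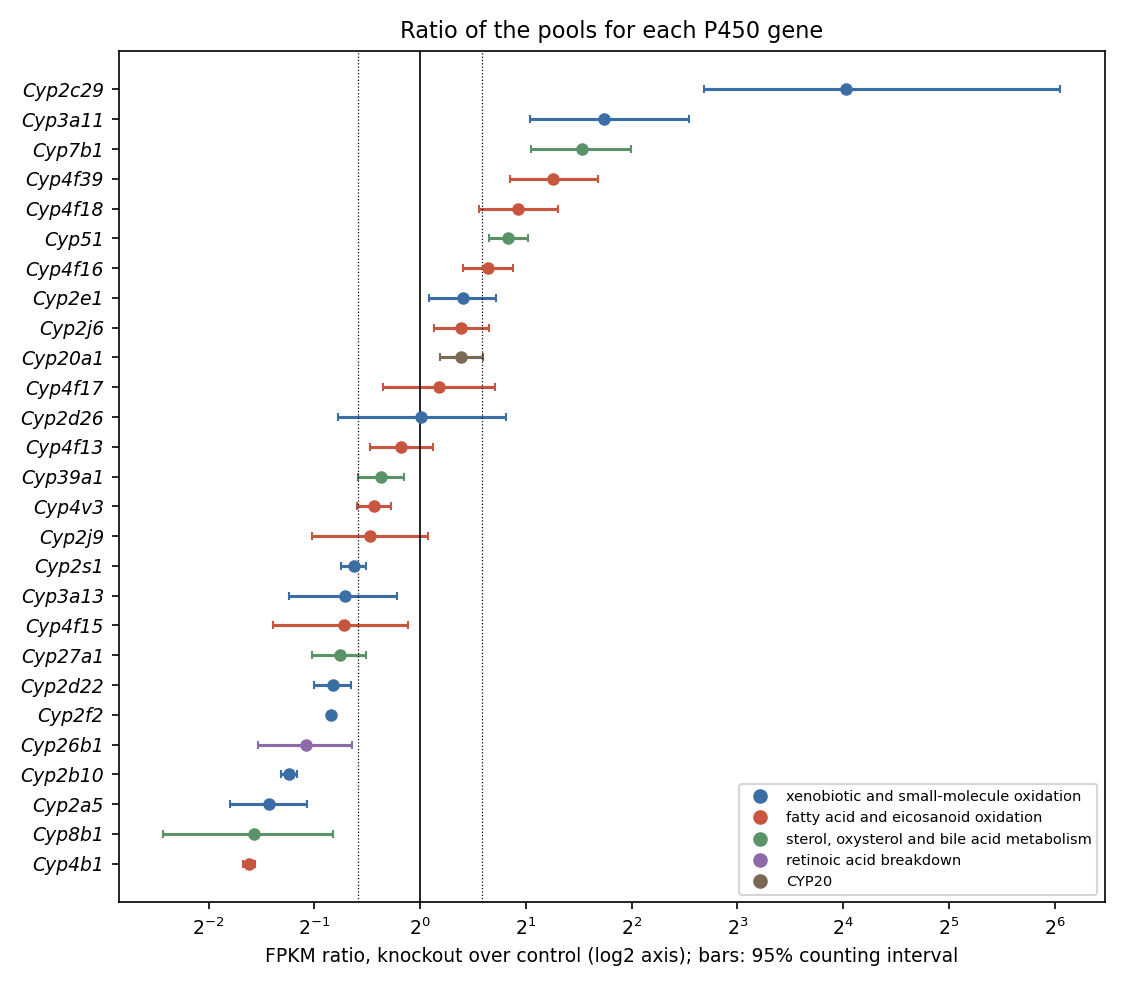
FPKM ratio, knockout over control, of the 27 P450 genes on a log2 axis, ordered by ratio and coloured by role, with bars for the 95% counting interval and dotted lines at 1.5-fold. Cyp2c29 has the highest ratio (16.3) and the widest interval, and Cyp4b1 the lowest ratio (0.326).

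The sterol group held 7 genes, of which 5 reached the floor, with 2 lower, 2 higher and 1 between. Of the 4 with an FPKM of at least 1 in both pools, 1 was lower and 2 were higher. Cyp27a1 (chr1:74760148-74784464), the mitochondrial sterol hydroxylase that starts the acidic bile acid route, was at 13.1 (control) and 7.77 (knockout), 1.69-fold lower (1.42 to 2.02). Cyp8b1 (chr9:121823474-121825423), which sets the cholic acid share of bile acids in liver, was at 2.17 and 0.734, 2.96-fold lower (1.77 to 5.37). Cyp39a1 (chr17:43804374-43888380), an oxysterol hydroxylase, was at 9.44 and 7.32, 1.29-fold lower (1.11 to 1.5), within the threshold.

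Cyp7b1 (chr3:17971950-18143338), which hydroxylates oxysterols, was at 1.56 (control) and 4.49 (knockout), a ratio of 2.88 (2.07 to 3.99). Its substrates include the product of Ch25h, cholesterol hydroxylase, and together these enzymes make the ligand of the immune cell receptor Gpr183. Ch25h was at 2.50 and 11.5, a ratio of 4.60 (3.40 to 6.29). It was the only one of 7 oxysterol genes to pass 1.5-fold in either direction, and the list had a median log2 ratio of 0.00. Hsd3b7, which follows Cyp7b1 in the pathway, was at 24.4 and 26.7, and Gpr183 at 1.74 and 1.98.

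Cyp51 (chr5:4080674-4104697), lanosterol demethylase and the P450 of cholesterol synthesis, was at 5.86 (control) and 10.4 (knockout), a ratio of 1.78 (1.57 to 2.02). Of 13 other genes of the pathway reported here, which are not the whole pathway, 1 was at least 1.5-fold higher, Hsd17b7, at 3.19 and 5.77. The median log2 ratio of the 13 was 0.20, against 0.05 for all genes. Dhcr7 had a plain ratio of 1.60 (1.32 to 1.93), at 4.33 and 6.91, short of 1.5-fold on the log2(FPKM + 1) scale. Srebf2, the transcription factor of the pathway, was at 33.0 and 29.7.

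**Figure D5:**
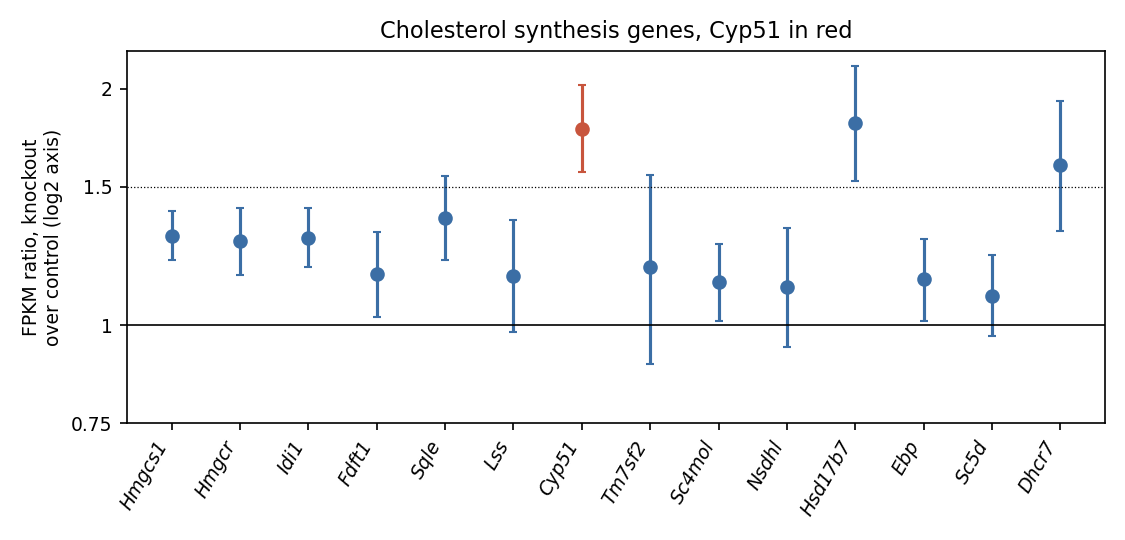
FPKM ratio, knockout over control, on a log2 axis for Cyp51 (red) and 13 other cholesterol synthesis genes in pathway order, with 95% counting intervals and a dotted line at 1.5. Cyp51, Hsd17b7 and Dhcr7 lie above that line.

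Cyp26b1 (chr6:84521408-84543902), which clears retinoic acid, was the only CYP26 gene over the floor. It was at 2.08 (control) and 0.988 (knockout), 2.11-fold lower (1.56 to 2.90). In the list of other retinoid genes, 2 of 7 over the floor were lower and 0 higher, with a median log2 ratio of -0.30. Those were Aldh1a1, a retinaldehyde dehydrogenase and also a club cell marker, at 607 and 319, and the retinaldehyde reductase Dhrs3, at 64.4 and 37.05. Aldh1a2, another retinaldehyde dehydrogenase, had the higher value in the knockout pool, at 7.49 and 11.6.

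Cyp20a1 (chr1:60400216-60444231), a P450 with no well established substrate, was at 15.8 (control) and 20.7 (knockout), a ratio of 1.31 (1.14 to 1.51). None of the 6 genes of steroid hormone synthesis reached the floor, with a highest FPKM of 0.200, and 3 were at 0 in both pools. Of 8 adrenal and gonadal markers, 2 reached the floor and 2, Mc2r and Nr5a1, were at 0 in both pools. The 8 summed to 4.33 (control) and 2.91 (knockout), with a highest single FPKM of 1.69. Of the 3 vitamin D genes, 0 reached the floor, and Cyp2r1, the hepatic activating enzyme, was highest at 0.764 and 0.867 with a ratio of 1.13 (0.580 to 2.31).

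At the floor itself, the last genes inside were Cyp3a11, Cyp2c29 and Cyp2d26. The first outside were Cyp2r1, Cyp2b13, at 0.817 (control) and 0.492 (knockout), and Cyp4a32. Of the 71 genes under the floor, 28 had the higher FPKM in the knockout pool, 27 the lower, and 16 were at 0 in both. Of the 28, 9 were at 0 in the control pool, and of the 27, 5 were at 0 in the knockout pool. For most of them the depth cannot show a difference, since counting intervals held 1, or could not be formed, for 59 of the 71. At this depth, 10 reads on 2000 bases of transcript equal an FPKM of 0.392 (knockout) or 0.303 (control).

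The partners of the P450 enzymes had no common direction. Of 10 electron donors and binding partners, 1 was lower and 2 were higher, with a median log2 ratio of 0.04. The lower gene was Por, the reductase of all microsomal P450s, at 109 (control) and 70.2 (knockout), 1.55-fold lower (1.47 to 1.63). Cyb5r1, a cytochrome b5 reductase, was at 16.98 and 27.5, and the ferredoxin Fdx1l at 6.34 and 10.1. The more abundant ferredoxin Fdx1 went the other way, at 37.0 and 30.5, a ratio of 0.825 (0.719 to 0.950), within 1.5-fold. Cyb5 itself was at 182 and 158. Of 13 genes of haem synthesis and breakdown, 0 passed 1.5-fold in either direction. Their median log2 ratio was 0.04, with Alas1, the first enzyme of haem synthesis, at 118 and 87.6.

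Of 24 regulators of P450 genes, 18 reached the floor, of which 3 were lower and 1 higher, with a median log2 ratio of -0.23. The 3 lower genes are the PAR bZIP factors, clock-controlled activators that bind D-box letters and are known to drive drug metabolism genes in liver. Dbp was at 50.3 (control) and 15.3 (knockout), 3.30-fold lower (2.92 to 3.73), Tef at 85.9 and 31.9 and Hlf at 6.69 and 2.74. The higher gene was Nfil3, a repressor that binds the same letters, at 1.79 and 4.27, a ratio of 2.38 (1.71 to 3.30). The labels name no time of day for the collection. The part of these factors in the P450 values was not tested. The drug-sensing receptors were near 0, Nr1i2 (PXR) at 0.197 and 0.270 and Nr1i3 (CAR) at most 0.0623. None of the 23 promoter windows held the D-box letters searched. These letters occur in such windows of 1.10% of all genes searched, so their absence from 23 windows is uninformative.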

How the data were processed

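Per the labels, mouse lung RNA was pooled by genotype and sequenced as 1 library per group, grouped by the labelled genotype. The authors deposited FPKM for 28107 RefSeq transcripts per library, with coverage per the file headers, which is FPKM divided by a constant of the library. The submitters' processing notes name mm9 and DESeq. No source states the role of DESeq, and the aligner was not given in the sources used here. Files were joined on transcript, gene, position and length, and FPKM was summed per symbol (Python 3.11.15, pandas 2.3.3, scipy 1.17.1). Starts are counted from 1. Log2 ratios used a pseudocount of 1, gene counts a floor (mean FPKM of at least 1) with a fold of 1.5. Reads were approximated as coverage times length divided by 47.6 (knockout) or 47.5 (control) bases per read, and gave exact 95% conditional intervals. Simulated reads drawn from the same counting model checked the calculation only, not the read approximation or the variation between pools. With no strand or multi-mapping rule stated, reads of overlapping or near-identical genes may be shared. Every member over the floor, the 3 on each side of it, and genes of companion lists over the floor could be named, with markers by their extremes. Gm12839, Nr1i2, Nr1i3, Cyp7a1 and some Cyp2a and Cyp2c genes under the floor were named after their values were seen. Members and lists were chosen with earlier results of these data known. Alternatives covered the pseudocount, floor, fold, scaling, transcript choice and record status. For a companion list, 1 gene is not reported here, and the list's counts and median leave it out.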

Additional observations from a re-analysis of the deposited data

How the results depend on the processing

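No paired analysis was possible because each group holds 1 library, and for the same reason no replicate could be left out. The count of genes at least 1.5-fold higher, 6 as reported, was 2 with a floor of 5, 10 with the lowest fold tried, 2 with a fold of 2, and 3 with FPKM summed per subfamily (19 values), which was chosen after seeing the data. The count of lower genes, 9 as reported, was 5 with a pseudocount of 3, 14 with the lowest fold tried and 3 with a fold of 2. The ratio of summed FPKM, 0.536 as reported, was 0.514 after setting the median log2 ratio of all genes to 0, 0.514 after upper quartile scaling and 0.507 after scaling without the 20 most abundant genes. It was 0.501 without Cyp2f2 and 0.915 without Cyp2f2, Cyp4b1 and Cyp2b10, both chosen after seeing the data. The median log2 ratio lay between -0.41 and -0.20 except without a floor, where it was 0 over 98 genes. The log2 of the scaling factors was -0.06 to -0.08, and log2(FPKM + 1) ratios of weakly expressed genes moved by less. Under these scalings Cyp2d26, at equality, changed sign, and no other of the 27 genes did under any alternative run. Of 189 values for single genes, 174 stayed within their counting interval. The cause of the differences was not tested. Pools of 1 library per genotype and depth limit all genes near an FPKM of 1.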
